A study of Arabidopsis thaliana with 24 samples.

Results

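MGL (locus AT1G64660) is the Arabidopsis gene for methionine gamma-lyase. The array carried 1 probe set with MGL as its only gene, out of 16746 probe sets with 1 gene, and no probe set with several genes held it. The gene was chosen by its measured signal in the petiole base, which stepped up under local and then whole-rosette far-red light, so those values are given as a description with no test. The probe set's identity rests on the platform annotation, and no MGL sequence was used here.

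Methionine gamma-lyase is a pyridoxal phosphate enzyme that breaks methionine into methanethiol, 2-oxobutyrate and ammonia. In plants 2-oxobutyrate is also a precursor of isoleucine, so the enzyme joins the breakdown of one amino acid to the synthesis of another. Methionine itself is made from aspartate through homocysteine, is returned from S-methylmethionine by homocysteine methyltransferases, and is spent on S-adenosylmethionine, the methyl donor from which ethylene is made. Phytochrome, a red and far-red light receptor, reads far-red enrichment as the sign of neighbouring leaves.

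The series holds 24 arrays in 8 groups of 3, taken from plants 28 d old, whose labels name the species but no ecotype or genotype. Samples came from the fifth-youngest leaf 5 h after treatment began, as the leaf tip (2.5 mm at the end of the blade) or the petiole base (the lowest 1.5 mm of its stalk). All 4 treatments shared 140 µmol of photosynthetic light per square metre and second, in days of 9 h at 20 °C. Control plants stood in white light whose red to far-red ratio was 2.3, and touched plants in the same light. Under local far-red (local FR) the ratio was 0.05 at the leaf tip alone, so the petiole base of those leaves stayed in background light, and under whole far-red (whole FR) it was 0.05 over the rosette. The labels give 3 independent biological replicates per group and do not describe the touch.

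Named probe sets covered 3 of 23 marker loci of lamina, leaf base, vascular, epidermal and dividing cells. LHCB4.2, a light harvesting gene, was higher in the control tip by 1.12 on the log2 scale (SE 0.14) and FMA, a guard cell gene, by 1.26 (SE 0.21). AUR1, a mitotic kinase gene, differed by -2.74 (SE 0.28), the base being the higher. The leaf base markers BOP1, BOP2 and ATH1 were not among them, so the petiole base was not checked against them. Within groups the arrays correlated at 0.980 to 0.992 across probe sets.

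In control plants MGL stood at moderate, overlapping levels at both ends of the leaf. All values below are log2 RMA signals, which RMA has made comparable between arrays, and differences are differences of log2 means. In the control leaf tip the arrays read 4.154, 3.947 and 3.353, a mean of 3.82 ± 0.42 (SD, n = 3). In the control petiole base they read 3.307, 3.667 and 3.907, a mean of 3.63 ± 0.30. The 2 sets of arrays overlapped. The tip was higher by 0.19 (SE 0.23, 95% interval -0.28 to 0.66), which did not pass the test across all probe sets in limma (adjusted p = 0.574), in a comparison where 28.7% of 17504 probe sets were called at an adjusted p below 0.05. The control base arrays in it also served in the choice of the gene, so the test is not independent of that choice. These means lay above 60.8% of the probe sets in the tip and 57.2% in the base. The signal was therefore clear of the low end, where the 5th percentile of the control base was 0.91 and the 25th was 1.18.

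With far-red given to the tip only, the MGL signal was higher at the other end of the leaf. In the petiole base under local FR the arrays read 5.501, 5.848 and 5.648, a mean of 5.67 ± 0.17 (SD, n = 3). All 3 were above each of the control arrays, the closest gap being between 3.907 and 5.501. The difference was 2.04 (SE 0.23), or 4.11-fold. It was the 4th highest of the 16746 single-gene probe sets in that comparison, where 1.06% of probe sets were called, between AT5G12940 at 2.10 and PHE1 at 1.96.

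With the whole rosette in far-red light MGL in the petiole base went much higher. The arrays read 8.522, 8.665 and 8.245, a mean of 8.48 ± 0.21 (SD, n = 3), and none came near the local FR arrays. The difference from control was 4.85 (SE 0.23), or 28.8-fold, in a comparison where 13.3% were called. Only IAA29, an auxin response repressor gene, had a larger positive difference among the single-gene probe sets, at 5.50 (SE 0.31), and the next below MGL was AT4G33420 at 4.41. Whole FR exceeded local FR by 2.81 (SE 0.23), or 7.02-fold. MGL thus went from above 57.2% of the probe sets in the control base to above 79.9% under local FR and 97.7% under whole FR. Both FR groups are set against the same 3 control arrays, and all of these contrasts chose the gene.

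In whole pieces of tissue, fewer cells of a type and less RNA per cell cannot be told apart. Of the 3 measured cell type markers, none was called in the base under local FR, where LHCB4.2 differed from control by -0.20, AUR1 by -0.33 and FMA by 0.18. Under whole FR LHCB4.2 fell by 0.69 (SE 0.14, adjusted p = 0.00131), while AUR1 and FMA, at -0.40 and 0.10, did not pass the test. Each list had at most 1 measured gene, and its level in the base was 7.75, 7.54 and 7.06 in control, local FR and whole FR for LHCB4.2, and 6.07, 5.74 and 5.67 for AUR1. FMA stood at 4.59, 4.77 and 4.70, so none of the 3 was near the low end. Their part in the MGL values was not tested.

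**Figure D1:**
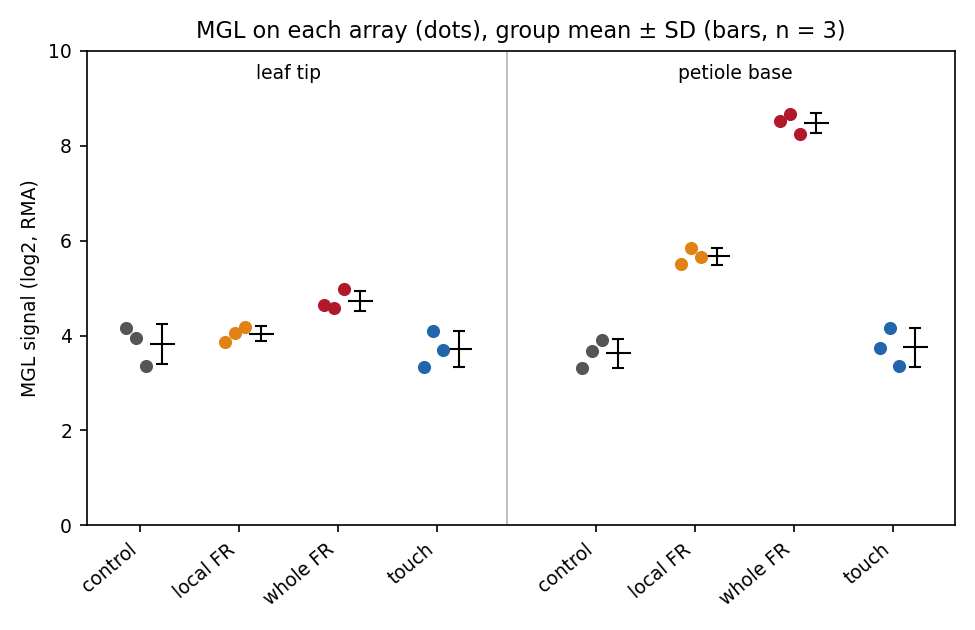
MGL signal (vertical axis, log2 RMA) on each of the 24 arrays, by treatment and tissue, with coloured dots for arrays and bars for the group mean ± SD (n = 3). The petiole base steps from 3.63 in control to 5.67 under local FR and 8.48 under whole FR, while the leaf tip stays between 3.71 and 4.73.

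At the leaf tip, which was lit with far-red in both treatments, MGL differed far less from control. Under local FR the tip arrays read 3.87, 4.052 and 4.185, a mean of 4.04 ± 0.16 (SD, n = 3). They lay within or just above the control arrays of the tip. The difference was 0.22 (SE 0.23, 95% interval -0.25 to 0.69) and did not pass the test (limma adjusted p = 0.782), in a comparison where 2.05% of probe sets were called. Its sign rests on 1 array: without control leaf tip replicate 3, which read 3.353, the difference was -0.01.

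Under whole FR the tip arrays read 4.643, 4.583 and 4.97, a mean of 4.73 ± 0.21 (SD, n = 3), all above the highest control tip array at 4.154. MGL rose there by 0.91 (SE 0.23, 95% interval 0.44 to 1.39), or 1.88-fold, at a limma adjusted p of 0.0129, in a comparison where 7.91% of probe sets were called and 4.01% were called higher. From the highest, it ranked 265th of the 16746 single-gene differences, positive and negative. The call was lost when only the 2 groups compared were fitted (adjusted p = 0.0607), without control leaf tip replicate 3 (0.68, adjusted p = 0.0961) and without whole FR leaf tip replicate 3 (0.79, adjusted p = 0.0661). The direction held in each of these.

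The tip was lit alike under local and whole FR, and the 2 treatments differed in the light on the rest of the plant. Their tip arrays did not overlap, with local FR up to 4.185 and whole FR from 4.583. Whole FR was higher by 0.70 (95% interval 0.22 to 1.17), which did not pass the test over all probe sets (limma adjusted p = 0.129, unadjusted p = 0.00585), where 2.23% of them were called. Whole FR also exceeded touch in the tip by 1.02 (SE 0.23, adjusted p = 0.00564, with 7.33% of probe sets called), and that call held when each of the 6 arrays was left out. Local FR differed from touch in the tip by 0.33 (SE 0.23, adjusted p = 0.717, with 1.38% called).

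The tip and base effects of far-red can be set side by side. The effect of local FR was 1.82 lower in the tip than in the base on the log2 scale, written as a difference of -1.82 (SE 0.32). For whole FR the difference was -3.94 (SE 0.32). MGL had the 18th lowest of the 16746 values in the first, where 0.908% of probe sets were called, and the 6th lowest in the second, where 8.36% were. This again rests on the contrasts that chose the gene. Under local FR the tip stood below the base by 3.10-fold, and under whole FR by 13.4-fold, whereas the control tip and base overlapped.

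Under touch MGL did not pass the test in either tissue. In the leaf tip the touch arrays read 3.338, 4.096 and 3.694, a mean of 3.71 ± 0.38 (SD, n = 3), spread over nearly the same span as the controls. In the petiole base they read 3.742, 4.168 and 3.352, a mean of 3.75 ± 0.41, overlapping the control arrays and reaching above the highest of them. The differences were -0.11 (95% interval -0.58 to 0.36, limma adjusted p = 0.945) in the tip and 0.13 (95% interval -0.35 to 0.60, adjusted p = 0.935) in the base, where 0.246% and 0.211% of probe sets were called. The intervals reach 0.60 in size, and with 1 array left out either sign appeared in both tissues. The touch effect in the tip differed from that in the base by -0.24 (SE 0.32, adjusted p = 0.884), in a comparison where limma called 0.00% of probe sets and 1507 had an unadjusted p below 0.05. Touched tip and base differed by -0.04 (adjusted p = 0.922, with 24.5% called). The control arrays of the base, which the choice of the gene used, also enter the touch contrast of the base and the difference of touch effects. In the base whole FR stood above touch by 4.72 (SE 0.23) and local FR by 1.91 (SE 0.23), given without a test.

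**Figure D2:**
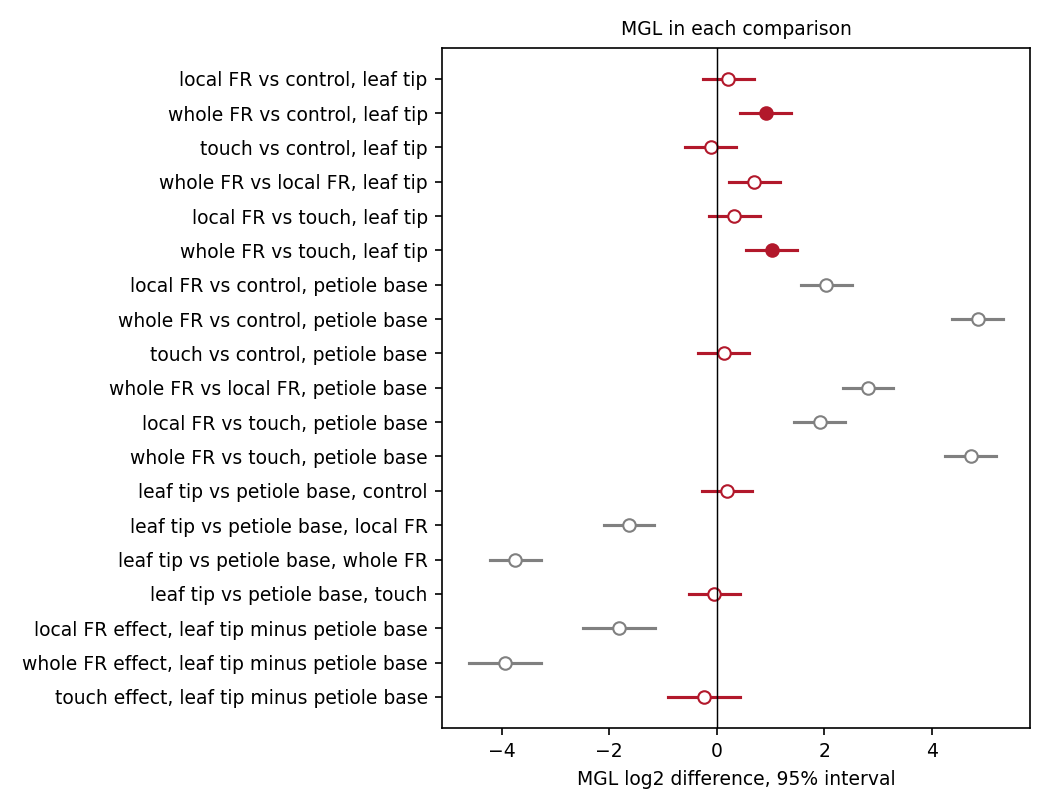
MGL log2 difference (horizontal axis) with its 95% interval from limma in 19 comparisons; red marks comparisons that were tested, filled where called, and grey those that are described only. Whole FR against control (0.91) and against touch (1.02) in the leaf tip are the filled points, and the petiole base far-red contrasts lie farthest from 0, up to 4.85.

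Ordered by mean, MGL was lowest in the control base at 3.63, followed by the touched tip at 3.71, the touched base at 3.75, the control tip at 3.82 and the local FR tip at 4.04. Each of these 5 groups overlapped with its neighbour in the order, and their 15 arrays spanned 3.307 to 4.185. Then came the whole FR tip at 4.73, the local FR base at 5.67 and the whole FR base at 8.48, and none of these 3 overlapped with the group below it. The gaps between their means grew from 0.70 to 0.93 to 2.81.

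The replicate spread of MGL was wider than that of most genes. Its residual SD was 0.30 over all groups, larger than that of 80.9% of the 2009 probe sets within 0.5 of its mean signal, whose median SD was 0.23. The group SDs ran from 0.16 in the local FR tip to 0.42 in the control tip. The 4 FR groups had SDs of 0.16 to 0.21 and the 4 control and touch groups of 0.30 to 0.42. Set against the control array of the same number, the base was higher by 2.19, 2.18 and 1.74 under local FR and by 5.21, 5.00 and 4.34 under whole FR.

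Other genes, mostly of methionine and branched-chain amino acid metabolism, came from 8 lists of 120 loci. These included 12 loci of dark and sugar starvation, with 1 measured, and 8 of drought and abscisic acid, with none measured. Named probe sets covered 21 of the 120. Of these 21, 1 rose and none fell in the petiole base under local FR, where 0.811% of all probe sets were called higher and 0.251% lower. Under whole FR in the base 1 rose, 3 fell and 17 did not pass the test, against 7.18% of probe sets higher and 6.10% lower. The median difference of the 21 was -0.10 under local FR and -0.14 under whole FR, beside -0.01 and 0.00 over all probe sets. In the tip under whole FR 3 rose, 2 fell and 16 did not pass, where 4.01% of all probe sets were called higher and 3.90% lower. Under local FR in the tip 1 rose, where 1.17% were higher and 0.880% lower. Touch moved none of the 21 in either tissue by the same limma test. Before adjustment, touch gave a p below 0.05 for 1 pathway gene at the tip, beside 1634 of all 17504 probe sets. For the petiole base these counts came to 6 pathway genes, beside 1896 of all 17504.

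The gene of this set that rose in the petiole base under both FR treatments was HMT-1, a homocysteine methyltransferase gene whose product makes methionine, the substrate of MGL, from S-methylmethionine. Its base arrays read 3.824, 3.985 and 4.182 in control, 5.398, 6.222 and 6.039 under local FR, and 6.989, 7.27 and 7.277 under whole FR. The 3 groups did not overlap, in the same order as for MGL. HMT-1 rose by 1.89 under local FR (SE 0.25, limma adjusted p = 0.000175) and by 3.18 under whole FR (SE 0.25, adjusted p = 5.449e-09). Whole FR exceeded local FR by 1.29 (SE 0.25, adjusted p = 0.0019, where 5.47% of probe sets were called). Because the lists were chosen with earlier results of these data known, these tests may not be independent of that choice. At the tip under whole FR, where MGL rose, the difference of HMT-1 was 0.01 (95% interval -0.51 to 0.53) and did not pass the test. Unlike MGL it was higher in the control base than in the control tip, with a tip minus base difference of -1.12 (SE 0.25, adjusted p = 0.0014).

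Of the 3 measured genes of the methionine synthesis list 2 fell in the base under whole FR, where 6.10% of all probe sets were called lower. CBL, for cystathionine beta-lyase, which makes homocysteine and belongs to the same enzyme family as MGL, read 8.26, 8.503 and 8.175 in control against 7.007, 7.186 and 7.079 under whole FR. It fell by 1.22 (SE 0.12, adjusted p = 2.528e-07), while under local FR its difference was -0.20 (95% interval -0.46 to 0.06). AT1G72810, entered on the same list as the threonine synthase TS2, fell by 1.33 under whole FR (SE 0.22, adjusted p = 0.000124). The 2 genes that fell are thus not both genes of methionine synthesis itself. AT1G33320, a further locus of the methionine synthesis list, stood at 1.48 in the control base, near the low end of the signals, and did not pass the test under either FR treatment. CGS1, the cystathionine gamma-synthase gene, was not among the genes measured under a name.

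**Figure D3:**
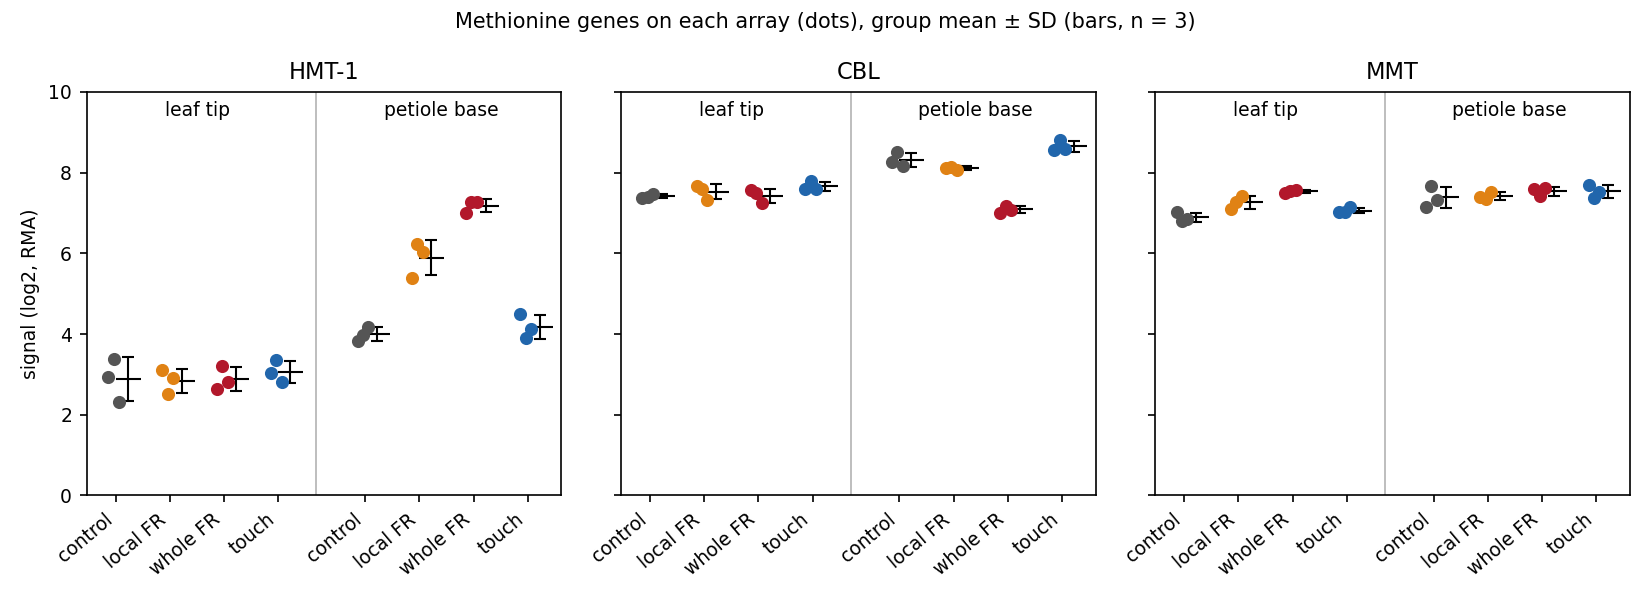
Signal (vertical axis, log2 RMA) of HMT-1, CBL and MMT on each array by treatment and tissue, with dots for arrays and bars for the group mean ± SD (n = 3). In the petiole base HMT-1 steps up from control to whole FR as MGL does, CBL is lower under whole FR, and MMT stays between 7.16 and 7.703.

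At the leaf tip, where MGL rose by 0.91 under whole FR, 3 pathway genes rose and 2 fell. MMT, the methionine S-methyltransferase gene that makes S-methylmethionine, rose by 0.65 (SE 0.13, adjusted p = 0.00233), and ARD4, an acireductone dioxygenase gene of methionine recycling, by 0.75 (SE 0.14, adjusted p = 0.00136). AT3G23940, from the list of isoleucine, valine and leucine synthesis, fell by 0.84 (SE 0.14, adjusted p = 0.000442), and the other 3 of its 4 measured genes did not pass. AT1G21400, from the list of branched-chain amino acid breakdown, rose by 0.88 under local FR (SE 0.17, adjusted p = 0.00408) and by 1.68 under whole FR (SE 0.17, adjusted p = 4.908e-07), and the other 5 of 6 did not pass. With only the groups compared its local FR call was lost (adjusted p = 0.0823). AT2G31790, from the list of methionine-derived glucosinolates, fell by 0.82 in the tip (SE 0.20, adjusted p = 0.0101) and by 2.29 in the base (SE 0.20, adjusted p = 2.661e-08) under whole FR. Its tip call was lost without control leaf tip replicate 1 (adjusted p = 0.0520) and without whole FR leaf tip replicate 3 (adjusted p = 0.0511). The single measured genes of the ethylene synthesis and the dark and sugar starvation lists, AT1G12010 and AKINBETA1, were not called under any treatment. AT1G12010 stood at 1.42 in the control tip and 1.03 in the control base, near the low end of the signals. None of 8 drought and abscisic acid loci was measured under a name.

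**Figure D4:**
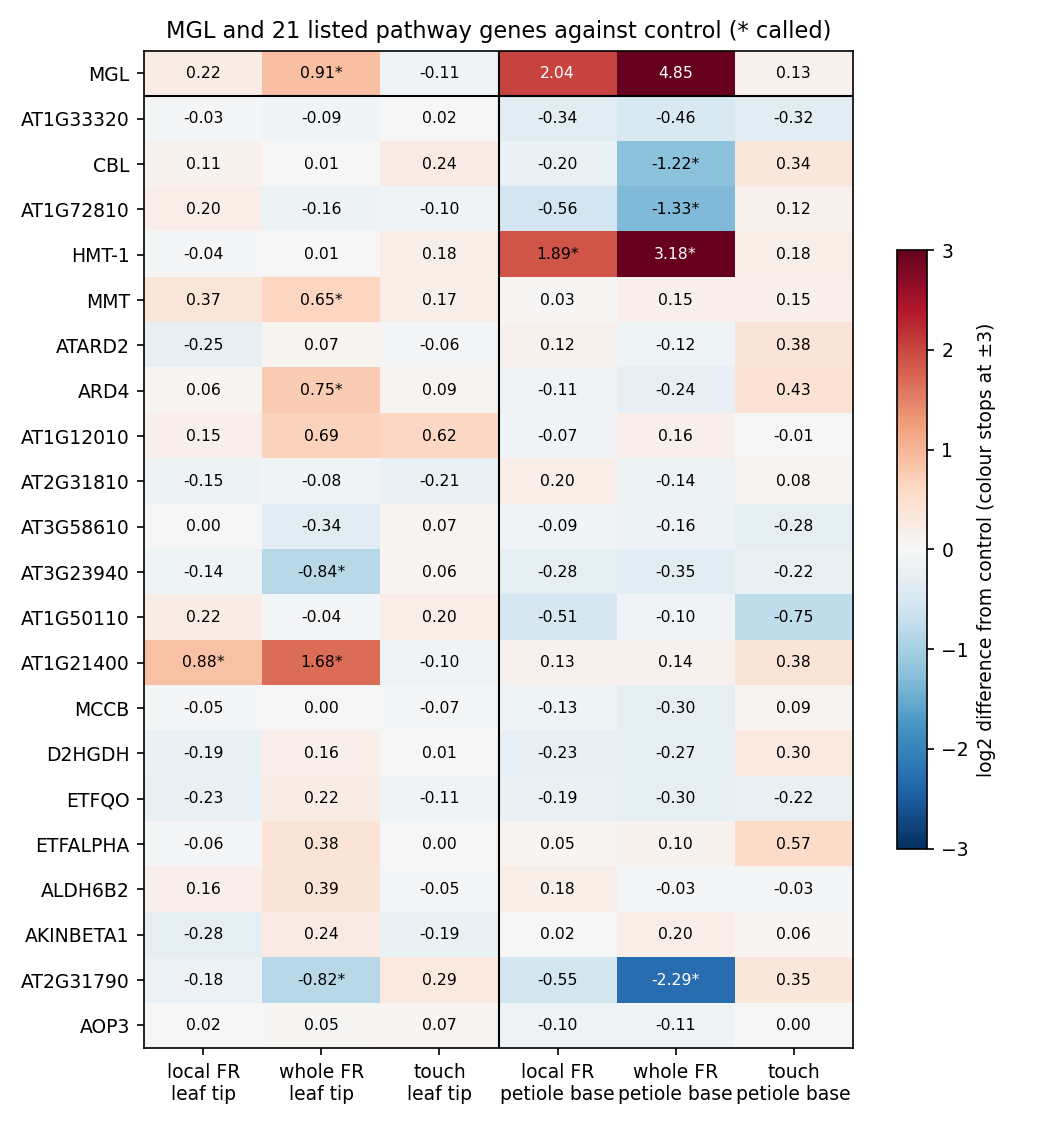
Log2 difference from control (colour and printed value) of MGL and the 21 measured pathway genes (rows) under each treatment in each tissue (columns), with an asterisk where limma called it. HMT-1 is the only row besides MGL above 1 in both petiole base far-red columns; the MGL cells in those columns carry no test.

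The loci beside MGL on the chromosome had smaller differences than MGL in the petiole base. Of the 2 on each side, AT1G64650 and AT1G64680 were measured under a name. Under whole FR in the base AT1G64650 rose by 0.64 (SE 0.15, adjusted p = 0.0055) and AT1G64680 fell by 0.68 (SE 0.22, adjusted p = 0.0437). The call of AT1G64680 was lost in 5 of the 6 fits that left out 1 of its arrays (-0.52 to -0.75 in those, adjusted p up to 0.194), with every probe set in the table (adjusted p = 0.0672) and with only the groups compared (adjusted p = 0.0917). Neither passed the test there under local FR, at 0.33 and -0.42, or in the tip under whole FR, at 0.20 and 0.10, where MGL did.

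Genes with the pattern most like MGL were those with the highest Pearson correlation across the 8 group means, which share their arrays and control groups and are dominated by the whole FR base. The 10 highest ran from 0.982 to 0.992, among 198 of 16745 single-gene probe sets above 0.9. FATB, an acyl-ACP thioesterase gene that releases fatty acids for export from the plastid, led with 0.992. Its steps were smaller than those of MGL, from 9.41 in the control base to 9.91 under local FR and 10.66 under whole FR. NIG, annotated as a GTPase that interacts with a viral shuttle protein, followed the order at 7.56, 7.94 and 8.41. AT4G25260 came closest to MGL in size, at 4.15, 5.42 and 8.32 in the base and 3.80, 4.48 and 5.11 in the tip. The others were AT2G15730, AT3G59800, AT4G35720, AT2G41760, AT2G47440, AT1G10740 and AT1G30690. Of the 10, 7 differed from control by at least 1 in the whole FR base. All 10 had a smaller difference there than MGL, which only IAA29 exceeded among all single-gene probe sets. Across the 24 arrays 8 of the 10 stayed among the 10 highest, and across the 4 petiole base means 1 did. HMT-1 ranked 344th, with a correlation of 0.863 across the means and 0.849 across the 24 arrays. Of the 10, AT2G15730 at 0.793 and AT3G59800 at 0.640 lay below HMT-1 across the 24 arrays, and the others ran from 0.937 to 0.971.

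**Figure D5:**
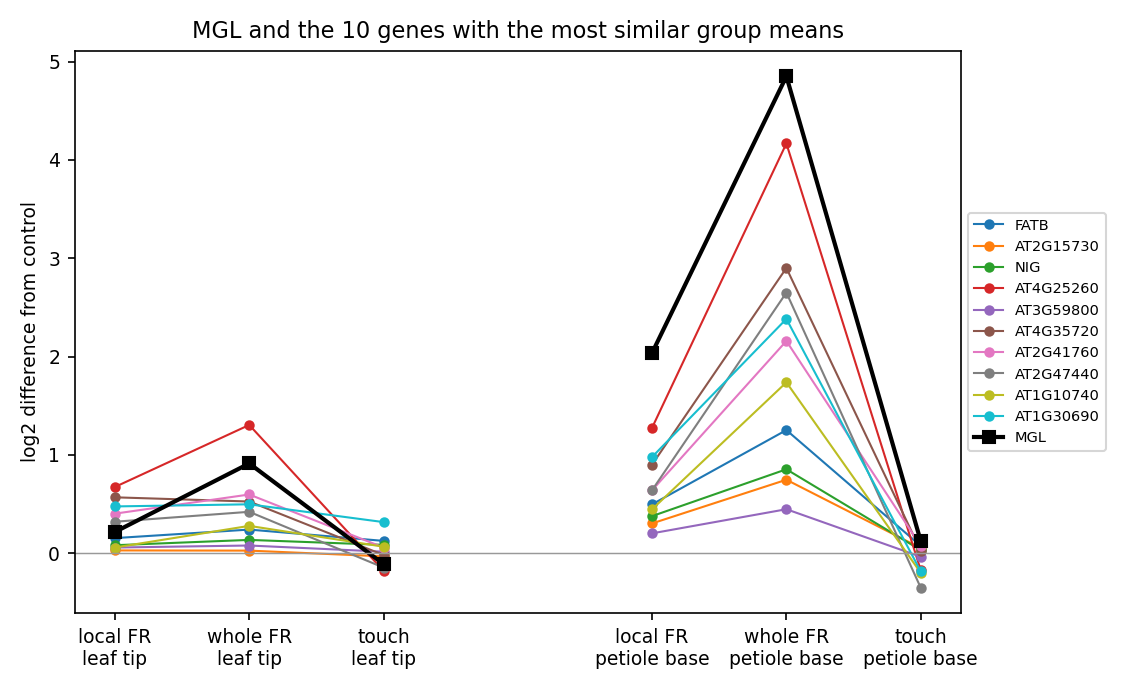
Log2 difference from the control of the same tissue (vertical axis) under local FR, whole FR and touch for MGL (black squares) and the 10 genes with the most similar group means (coloured dots). All 11 are highest in the whole FR petiole base, where MGL stands at 4.85 and AT4G25260 is the nearest to it.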

How the data were processed

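Biotin-labelled RNA was read on Affymetrix arrays. The deposited values are log2 RMA signals at the core gene level from Expression Console, per the labels; its version, the annotation release and the genome build are not given in the sources used here. RMA equalises signal distributions, so a shift shared by all genes is lost. Precision is limited by having 3 arrays per group. The platform annotation gave 1 gene for 16746 and several for 758 of 38408 probe sets, and these 17504 were tested. No coordinates are printed, because the array's build is not known.

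A limma 3.58.1 model (R 4.3.3) held 1 mean for each of the 8 groups, leaving 16 residual degrees of freedom, with eBayes and no trend. Tests were two-sided with Benjamini-Hochberg adjustment over the 17504 probe sets and a threshold of 0.05. MGL was tested in 10 comparisons other than those that chose it, of which those with the control petiole base share arrays with the choice. The gene and the lists were chosen with earlier results of these data known. By rule the text names MGL, its enzyme family, the 2 loci on each side, the 10 genes most correlated with it, and at most 4 called genes per list and comparison. Outside that rule it names cell type markers, genes beside MGL in rank, and uncalled genes that were the only ones measured on their list. MCCB was picked for its correlation with MGL.

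What a replicate number marks is not stated. Between control and local FR in the petiole base the deviations of same-numbered arrays correlated at 0.100, 0.183 and 0.437. It was the only comparison with all 3 above 0.1. Single values above 0.1 occurred elsewhere, the largest for replicate 3 in the base, at 0.231 between control and touch and 0.191 between local FR and touch. The main fit used no pairing in any comparison, and the number entered only as the replicate block among the other settings. Other settings tried were the replicate block, cyclic loess, removal of the dimmest 30% of probe sets, every probe set in the table, a robust fit with a variance trend, the compared groups alone, and each array left out.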

Additional observations from a re-analysis of the deposited data

Results flagged for a closer look

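For 6 of the named pathway genes the far-red effect differed between leaf tip and petiole base by limma's test of the difference (tip minus base). HMT-1 had the lower effect in the tip, at -1.93 for local FR (SE 0.35, adjusted p = 0.00495) and -3.17 for whole FR (SE 0.35, adjusted p = 2.435e-06). For whole FR the tip minus base value was positive for CBL at 1.24 (SE 0.17, adjusted p = 5.292e-05), AT1G72810 at 1.17 (SE 0.30, adjusted p = 0.017) and ARD4 at 0.99 (SE 0.20, adjusted p = 0.00237). It was also positive for AT1G21400 at 1.55 (SE 0.23, adjusted p = 0.000123) and AT2G31790 at 1.47 (SE 0.28, adjusted p = 0.00137). For CBL, AT1G72810 and AT2G31790 this came from a larger fall in the base, with differences from control of -1.22, -1.33 and -2.29. In the tip AT2G31790 differed by -0.82, and CBL and AT1G72810 were not called. ARD4 and AT1G21400 rose in the tip, by 0.75 and 1.68, and were not called in the base. Of all 21 measured pathway genes, local FR gave 0 positive and 1 negative call, and whole FR gave 5 and 1. Over all probe sets 0.908% differed in this way for local FR and 8.36% for whole FR. The named genes were those already called against control in a tissue, a choice that favours such differences.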

How the results depend on the processing

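The described petiole base differences of MGL moved little: without 1 array they were 1.88 to 2.18 (local FR) and 4.69 to 4.99 (whole FR) from control. With all arrays present the replicate block cannot move a difference of group means (2.04 for local FR, as without it), only its error, and it changed no MGL call. With only the groups compared, the whole FR call in the tip was lost (0.91, adjusted p = 0.0607); over all settings with every array adjusted p ran from 0.00828 to 0.0607. With 1 array left out MGL ranged, in the tip, from 0.68 to 1.08 for whole FR, -0.015 to 0.39 for local FR and -0.34 to 0.077 for touch. The range was -0.08 to 0.33 for touch in the base and -0.25 to 0.16 for touched tip minus base. Signs turned in the last 4: local FR in the tip without control replicate 3 (-0.015), touch in the tip without control or touch replicate 1 (0.059 and 0.077), touch in the base without control replicate 1 or touch replicate 2 (-0.03 and -0.08), and touched tip minus base without tip replicate 1 or base replicate 2 (0.14 and 0.16).

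Counts of called probe sets varied more. The setting with every probe set in the table tested 38408, against 17504 in the main fit, so their raw counts do not compare as shares. That setting called 556 and 2900 in the tip and 327 and 4266 in the base for local and whole FR. In the main fit the counts were 359, 1384, 186 and 2323. With only the groups compared they were 126 and 696 in the tip and 27 for local FR in the base, and for touch 0 in the tip (43 otherwise) and 0 in the base (37 otherwise). Touch in the base gave 62 with the replicate block and 85 with the robust trend. With 1 array left out the counts ran from 213 to 314 and 16 to 53 for local FR and touch in the tip, and from 78 to 220 and 0 to 483 in the base. Called pathway genes went to 0 for local FR in the tip with only the groups compared, and ran from 0 to 1 for touch in the base without 1 array. The causes were not tested.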

Other observations

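Among the measured pathway genes MCCB, a methylcrotonoyl-CoA carboxylase subunit gene of leucine breakdown, had the most negative correlation with MGL across the 8 group means, at -0.922, and -0.789 across the 24 arrays. Its differences from control were small, at -0.30 in the base under whole FR, and were not called. Over the array, 65 single-gene probe sets lay below -0.9.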
